A study of Homo sapiens with 8 samples.

Results

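The 9 genes described here encode transporters that carry amino acids across the plasma membrane: SLC7A11, SLC7A5, SLC3A2, SLC7A1, SLC38A1, SLC38A2, SLC1A4, SLC1A5 and SLC43A1. They were chosen by name as a functional group, with earlier results of these data known. They are 9 of the 19431 genes, and 38 of the 81591 transcripts, in the deposited expression table. RNA-seq was performed on LNCaP-FGC, an androgen-dependent human prostate cancer cell line, in 4 groups of 2 libraries. The groups received DMSO (the solvent control), I-CBP112, A-485, or I-CBP112 and A-485 together ("both compounds"), each for 24 h. All groups were this 1 cell line with no genetic change named in the labels, and the sources used here give no doses. Separate cultures are not stated for the 2 libraries of a group, so every p-value measures only the spread between these libraries, which may be technical.

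I-CBP112 binds the bromodomains of p300 and CBP, the acetyl-lysine readers of these paralogous transcriptional coactivators, and A-485 blocks their catalytic acetyltransferase site. Amino acid transporters work by distinct routes. SLC3A2 (4F2hc, also CD98) is a single-pass heavy chain that brings light chains to the cell surface. Among these light chains, SLC7A5 (LAT1) exchanges large neutral amino acids, and SLC7A11 (xCT) imports cystine in exchange for glutamate and so feeds glutathione synthesis. SLC43A1 (LAT3) carries branched-chain amino acids by facilitated diffusion without a heavy chain, and was named for its overexpression in prostate cancer. SLC7A1 (CAT-1) takes up arginine and lysine. SLC1A4 (ASCT1) and SLC1A5 (ASCT2) exchange small neutral amino acids, with glutamine a main substrate of SLC1A5. SLC38A1 (SNAT1) and SLC38A2 (SNAT2) import glutamine and alanine with sodium. Several of the 9 are known targets of ATF4, the transcription factor that cells translate when amino acids run short.

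Values are scaled FPKM, that is, fragments per kilobase of transcript per 1e+06 fragments, summed over the transcripts of a gene and put on a common scale across libraries. The value that 1 fragment was worth gave 16.95 to 30.1 M fragments (M, 1e+06) on annotated transcripts in the replicate 1 libraries and 4.74 to 14.22 M in replicate 2. By this measure the replicate 2 library was the shallower in each of the 4 groups. Of the fragments that the values were normalized to, 90.7% to 99.2% lay on annotated transcripts in replicate 1. In replicate 2 only 21.5% to 49.4% did. The normalizing total itself was higher in replicate 2 with I-CBP112 (22.07 against 18.25 M) and with both compounds (28.79 against 18.39 M). What made the replicates differ in this share was not tested. Approximate fragments behind a gene's value ranged from 47.4 (SLC7A5, A-485 replicate 2) to 10410 (SLC3A2, DMSO replicate 1). The cells carried the luminal prostate markers: 9 of 9 were detected. Of the basal, immune and neuroendocrine lists, TP63, PTPRC, CD3E and INSM1 were at 0 in all 8 libraries, but other members were not. The basal KRT5 was at 6.69 in DMSO replicate 2 and 14.07 in I-CBP112 replicate 2. With both compounds in replicate 1 the immune CD68 was at 5.94, and the neuroendocrine SYP and ENO2 were at 4.87 and 74.1. The summed luminal level was 4510 to 5590 scaled FPKM under DMSO, 3030 to 3250 with I-CBP112, 2020 to 2390 with A-485 and 1630 to 2320 with both compounds. Its members did not move alike. From DMSO to both compounds, KLK3 went from 2243 and 1997 to 51.6 and 50.6, and TMPRSS2 from 188.4 and 166.5 to 13.4 and 11.9. FOXA1 went from 202.8 and 168.3 to 221.8 and 223.2, HOXB13 from 272.9 and 182.3 to 212 and 170.1, and KRT8 from 1210 and 760 to 1452 and 742.1. The summed neuroendocrine level, nearly all of it ENO2, was 19.2 to 31.1 with DMSO, 32.3 to 33.4 with I-CBP112, 35.7 to 38.3 with A-485 and 75.9 to 79.0 with both compounds. The stromal sum was 19.0 to 31.1 with DMSO and 25.2 to 29.8 in the treated libraries. The immune sum, all of it CD68, was 1.44 to 1.89 with DMSO and 2.03 to 5.94 in the treated libraries, and the basal sum was 1.05 to 7.26 with DMSO, 0.755 to 15.5 with I-CBP112, 0 to 0.297 with A-485 and 0.185 to 1.91 with both compounds. The part of these markers in the results below was not tested. In bulk RNA, fewer cells of a type and less RNA per cell cannot be told apart.

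Starts of most, not all, of these genes carry short motifs of 2 transcription factor families. The motifs are shown here because members fell together and because ATF4-regulated genes are described below. Start windows of RefSeq (build GRCh38.p14, from 250 bases before to 50 bases after each annotated start) were found for 8 of the 9 genes, 15 windows in all, and SLC7A11 had no entry. Motifs were searched on both strands, and the SLC38A2 window held no match. TGATGNAA, the core of the C/EBP-ATF response element through which ATF4 acts, was found in 5 of the 15 windows, against 3.62% of the 35116 windows of all genes. These windows belong to 5 of the 8 genes, and no rate per gene was taken for all genes. The capitals below mark TGATGNAA, on the strand of the gene and therefore as its reverse complement in SLC3A2 and SLC1A4.
SLC3A2, chr11:62881725-62881748 (+), 37 bases after the start of its most downstream window: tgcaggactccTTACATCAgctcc
SLC7A1, chr13:29595663-29595692 (-), 7 bases after the start: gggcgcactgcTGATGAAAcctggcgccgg
SLC1A4, chr2:64989381-64989410 (+), 7 bases before the start of its downstream window: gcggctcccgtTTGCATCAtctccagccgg
SLC1A5, chr19:46784864-46784971 (-), 97 bases before the start of its most downstream window: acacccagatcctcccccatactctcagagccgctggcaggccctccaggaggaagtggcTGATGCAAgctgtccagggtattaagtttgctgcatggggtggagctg
SLC38A1, chr12:46266502-46266531 (-), 4 bases before the start of its downstream window: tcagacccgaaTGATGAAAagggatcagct

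The E-box CACGTG, a palindrome bound by MYC and related factors, was found in 3 of the 15 windows, against 7.26% of all windows. Its capitals are shown for SLC7A5, SLC43A1 and SLC1A5.
SLC7A5, chr16:87869592-87869697 (-), 130 bases before the start: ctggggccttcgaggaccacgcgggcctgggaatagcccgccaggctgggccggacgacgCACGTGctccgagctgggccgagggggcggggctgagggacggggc
SLC43A1, chr11:57515769-57515874 (-), before the start of its upstream window: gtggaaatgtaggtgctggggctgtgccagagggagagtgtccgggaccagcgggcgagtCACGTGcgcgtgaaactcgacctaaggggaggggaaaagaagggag
SLC1A5, chr19:46787298-46787403 (-), 50 bases before the start of its middle window: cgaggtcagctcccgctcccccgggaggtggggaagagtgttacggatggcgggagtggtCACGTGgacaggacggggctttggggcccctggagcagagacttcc
No window held matches to both motifs, so the matches do not overlap each other. The palindromic androgen response element, AGAACA followed after any 3 bases by its reverse complement, was in 0 of the 15 windows and in 1 of all 35116. TGATGNAA and the E-box were chosen after the members were seen to fall, so their shares of windows are given without a test. A match describes letters only, and binding was not measured.

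With DMSO the 9 mRNAs spanned a wide range of levels. SLC3A2 (mean 363.6 scaled FPKM) and SLC1A5 (342) were the highest, above 96.7% and 96.5% of the 11874 genes tested, and their libraries overlapped. SLC43A1 (65.6) and SLC38A2 (60.1) followed and overlapped each other, and SLC7A1 (42.2) lay below both. SLC38A1 (24.7), SLC7A11 (21.9) and SLC1A4 (14.4) came next, each overlapping its neighbour, and SLC7A5 (8.28), above 38.1% of the genes tested, was the lowest. With both compounds the order began with SLC3A2 (110.1), SLC1A5 (55.4) and SLC38A2 (38.5), which were clear of one another. SLC7A1 (9.91), SLC38A1 (9.07) and SLC43A1 (7.94) followed, then SLC1A4 (3.57) and SLC7A11 (3.44), which overlapped, and SLC7A5 (1.36). SLC43A1 thus stood in the third place with DMSO and in the sixth with both compounds. Filters on low values removed no member: all 9 genes were tested.

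**Figure D1:**
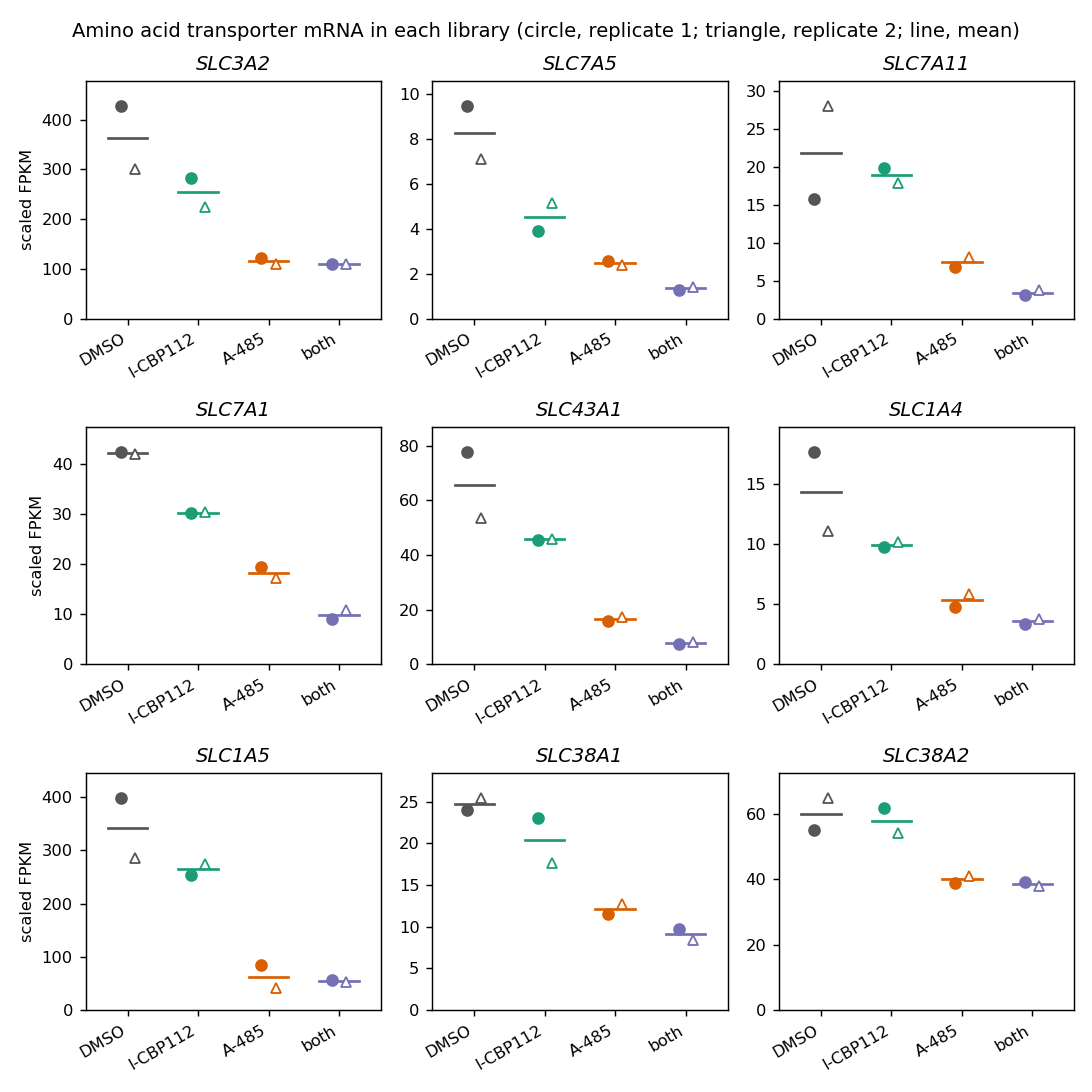
Level of each of the 9 transporter mRNAs in each library (scaled FPKM, axis from 0; circle, replicate 1; triangle, replicate 2; line, mean of the 2 libraries), by treatment. In all 9 panels the A-485 and both-compound libraries lie below both DMSO libraries, and SLC38A2 shows the smallest relative fall, from 60.1 with DMSO to 38.5 with both compounds (means).

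Against DMSO, 8 of the 9 mRNAs fell with A-485 and the same 8 fell with both compounds, all but SLC38A2, and none passed the test with I-CBP112 alone. Of all 11874 genes tested, 4.44% were called with A-485 (3.18% lower) and 10.6% with both compounds (7.1% lower), by limma at an adjusted p under 0.05. The median log2 fold change of the members was -1.39 with A-485 and -1.97 with both compounds, where the median of all genes was 0.01 and 0.04. Both treated libraries lay below both DMSO libraries in 9 of 9 members for either treatment, and in 25.9% and 26.4% of all genes tested. Within each replicate number 9 of 9 differences lay below 0 for each of these treatments, from -2.78 to -0.49 with A-485 and from -3.20 to -0.49 with both. The 3 comparisons with DMSO share its 2 libraries, so they are not independent of each other. With the replicate number added to the model as a block, SLC38A2 passed too, giving 9 of 9 in each comparison, where 9.1% and 12% of all genes were called lower.

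**Figure D2:**
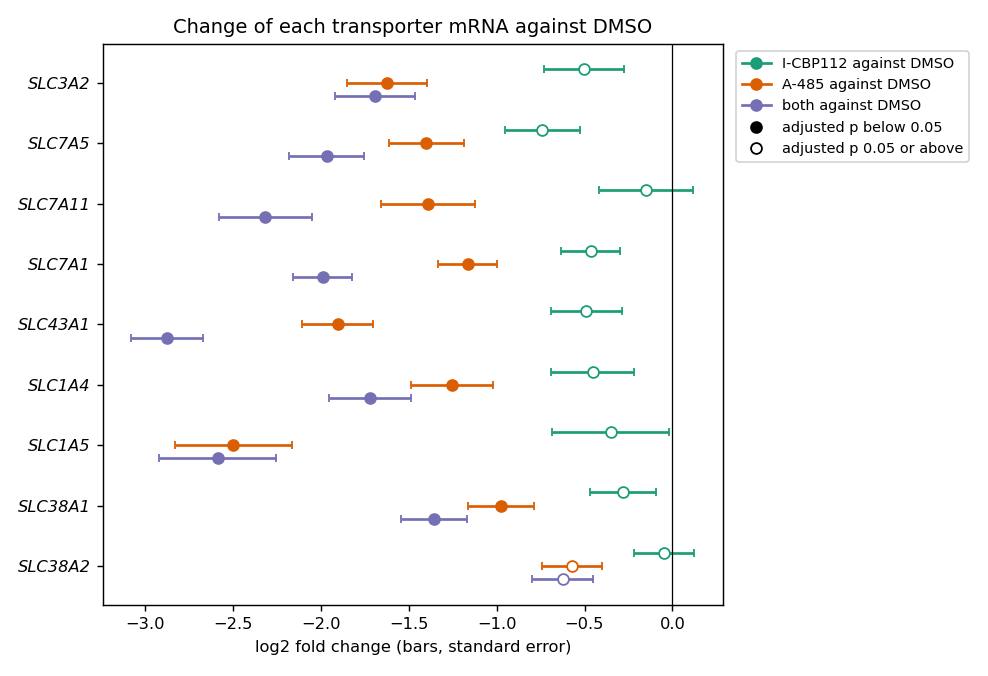
Log2 fold change of each transporter mRNA against DMSO (points, limma estimates; bars, standard error; filled, adjusted p below 0.05). A-485 and both compounds moved 8 of 9 mRNAs past the threshold, from -0.97 (SLC38A1, A-485) to -2.88 (SLC43A1, both), while all I-CBP112 points are open and lie between -0.74 and -0.05.

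The heavy chain SLC3A2 stood at 426 and 301 scaled FPKM in DMSO replicates 1 and 2, at 283 and 225 with I-CBP112, at 122 and 109 with A-485 and at 110.3 and 109.9 with both compounds. The A-485 and both-compound libraries were near one another, and all 4 were below all others. Its log2 fold change was -1.63 ± 0.23 with A-485 (n = 2 per group; limma, adjusted p = 0.0116) and -1.69 ± 0.23 with both (limma, adjusted p = 0.0042). Between both compounds and A-485 alone the difference was -0.07, with a 95% interval of -0.59 to 0.45 (limma, adjusted p = 0.93).

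SLC7A5, the leucine-carrying light chain, was at 9.46 and 7.10 scaled FPKM under DMSO, 3.93 and 5.17 with I-CBP112, 2.58 and 2.39 with A-485 and 1.29 and 1.43 with both compounds. The 4 groups did not overlap. The log2 fold change was -1.40 ± 0.21 with A-485 (limma, adjusted p = 0.0148) and -1.97 ± 0.21 with both (limma, adjusted p = 0.00191), which understates the ratio of such low values through the pseudocount of 1. On the linear scale the mean with both compounds was 16.4% of the DMSO mean.

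SLC7A11, the cystine importer, was at 15.8 and 28.02 scaled FPKM under DMSO, 19.8 and 18.0 with I-CBP112, 6.78 and 8.10 with A-485 and 3.11 and 3.76 with both compounds. The DMSO libraries lay further apart than those of the other groups, and the I-CBP112 libraries lay between them. A-485 changed it by -1.39 ± 0.27 on the log2 scale (limma, adjusted p = 0.0303) and both compounds by -2.32 ± 0.27 (limma, adjusted p = 0.00234). Within replicate 1 the A-485 difference was -1.11 and within replicate 2 it was -1.67.

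SLC43A1, the heavy-chain-independent leucine carrier, had the largest fall of the 9 with both compounds on the log2 scale. Its level was 77.6 and 53.7 scaled FPKM under DMSO, 45.6 and 45.8 with I-CBP112, 15.9 and 17.2 with A-485 and 7.54 and 8.35 with both compounds. No 2 groups overlapped. The log2 fold change was -1.90 ± 0.20 with A-485 (limma, adjusted p = 0.00513) and -2.88 ± 0.20 with both (limma, adjusted p = 0.000412), and the mean with both compounds was 12.1% of that with DMSO.

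SLC7A1, the cationic amino acid carrier, was at 42.3 and 42.0 scaled FPKM under DMSO, 30.2 and 30.4 with I-CBP112, 19.4 and 17.2 with A-485 and 9.02 and 10.8 with both compounds. The groups formed 4 separate steps, with log2 fold changes of -1.17 ± 0.17 for A-485 (limma, adjusted p = 0.013) and -1.99 ± 0.17 for both (limma, adjusted p = 0.000762).

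SLC1A5, the glutamine exchanger, was at 398 and 286 scaled FPKM under DMSO, 254 and 275 with I-CBP112, 85.3 and 40.7 with A-485 and 57.2 and 53.6 with both compounds. The both-compound libraries lay between the 2 A-485 libraries. On the log2 scale it changed by -2.50 ± 0.33 with A-485 (limma, adjusted p = 0.00957) and -2.59 ± 0.33 with both (limma, adjusted p = 0.0037). With A-485 the difference was -2.21 within replicate 1 and -2.78 within replicate 2. A transcript of 276 bases, SLC1A5-206, held 12.6% to 45.5% of the gene's value by library, and FPKM of so short a transcript weighs each fragment heavily. With transcripts under 1000 bases left out for all genes, an alternative chosen after seeing the data, the log2 fold change was -2.53 with A-485 and -2.57 with both compounds.

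SLC1A4, which exchanges alanine, serine and cysteine, was at 17.7 and 11.1 scaled FPKM under DMSO, 9.74 and 10.2 with I-CBP112, 4.80 and 5.84 with A-485 and 3.32 and 3.81 with both compounds. The groups did not overlap, although DMSO replicate 2 lay close to the I-CBP112 libraries. The log2 fold change was -1.26 ± 0.23 with A-485 (limma, adjusted p = 0.0287) and -1.72 ± 0.23 with both (limma, adjusted p = 0.00452).

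The sodium-coupled carriers had the smallest changes of the 9. SLC38A1 was at 24.0 and 25.4 scaled FPKM under DMSO, 23.1 and 17.7 with I-CBP112, 11.5 and 12.7 with A-485 and 9.73 and 8.42 with both compounds. Its log2 fold change was -0.97 ± 0.19 with A-485 (limma, adjusted p = 0.0309) and -1.36 ± 0.19 with both (limma, adjusted p = 0.00477). SLC38A2 was at 55.3 and 64.9 scaled FPKM under DMSO, 61.8 and 54.2 with I-CBP112, 39.0 and 41.0 with A-485 and 39.1 and 37.9 with both compounds. The A-485 and both-compound libraries of SLC38A2 were all below the others and lay together. Its log2 fold change of -0.57 ± 0.17 with A-485 (limma, adjusted p = 0.0943) and of -0.63 ± 0.17 with both (limma, adjusted p = 0.0574) did not pass. With the replicate block they did (limma, adjusted p = 0.0421 and 0.0244). Over all 17 alternatives the adjusted p of limma for SLC38A2 ran from 0.0377 to 0.476 with A-485 and from 0.0177 to 0.253 with both compounds.

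In 8 further fits, each of the 8 libraries was left out in turn, which leaves its group with 1 library. The calls with both compounds held in every fit. The calls with A-485 alone did not: each was lost in some fit. The number of all genes called with A-485 also varied widely between these fits, so changes are given by size. With A-485 the log2 fold change ran from -3.02 to -1.97 for SLC1A5 and -2.18 to -1.65 for SLC43A1. It ran from -1.89 to -1.38 for SLC3A2, -1.80 to -1.01 for SLC7A11 and -1.60 to -1.23 for SLC7A5. For SLC1A4 it was -1.58 to -0.95, for SLC7A1 -1.25 to -1.08, for SLC38A1 -1.04 to -0.91 and for SLC38A2 -0.69 to -0.47. With both compounds the range was -3.15 to -2.63 for SLC43A1 and -1.45 to -1.26 for SLC38A1. The direction was down in all 8 fits for each of the 9 genes with either treatment.

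I-CBP112 alone left each member below DMSO in the estimate, without a call. The log2 fold changes were -0.74 ± 0.21 for SLC7A5, -0.50 ± 0.23 for SLC3A2, -0.49 ± 0.20 for SLC43A1, -0.47 ± 0.17 for SLC7A1, -0.45 ± 0.23 for SLC1A4, -0.35 ± 0.33 for SLC1A5, -0.28 ± 0.19 for SLC38A1, -0.15 ± 0.27 for SLC7A11 and -0.05 ± 0.17 for SLC38A2 (limma, adjusted p from 0.329 to 0.944). Of all genes, 0% were called here by limma, 0 of 11874, with an unadjusted p under 0.05 for 1320 genes and for 3 of the 9 members (SLC7A5, SLC7A1 and SLC43A1). The voom version of limma on approximate fragments called 1 gene, none of them a member, and the block called 0. Both I-CBP112 libraries were below both DMSO libraries in 7 of the 9 members, as in 18.7% of all genes tested, the exceptions being SLC7A11 and SLC38A2. The sign for SLC38A2 turned when libraries were scaled by their total alone (0.09), which moves the median of all genes in this comparison to 0.13.

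Compared with I-CBP112 alone, both compounds lowered 8 of the 9 mRNAs, again all but SLC38A2, where 2.22% of all genes were called (1.95% lower). The log2 fold change was -2.39 ± 0.20 for SLC43A1 (limma, adjusted p = 0.00155), -2.24 ± 0.33 for SLC1A5 (limma, adjusted p = 0.0167), -2.17 ± 0.27 for SLC7A11 (limma, adjusted p = 0.00729) and -1.53 ± 0.17 for SLC7A1 (limma, adjusted p = 0.00419). It was between -1.27 and -1.08 for SLC1A4, SLC7A5, SLC3A2 and SLC38A1 (limma, adjusted p from 0.0301 to 0.0419), and -0.58 for SLC38A2 (limma, adjusted p = 0.15). With a library left out, the call of SLC43A1 held in every fit, and each of the other calls was lost in some fit. The log2 fold change then ran from -2.45 to -2.32 for SLC43A1 and from -1.26 to -0.89 for SLC38A1.

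Compared with A-485 alone, both compounds gave lower estimates for all 9 members, but limma called 0 of them without and with the block, where 0.817% of all genes were called (0.716% lower), or 1.38% with the block. The unadjusted p was under 0.05 for 1443 of all genes and for 4 members: SLC43A1 at -0.97 ± 0.20 (limma, adjusted p = 0.1), SLC7A11 at -0.93 ± 0.27 (limma, adjusted p = 0.208), SLC7A1 at -0.82 ± 0.17 (limma, adjusted p = 0.0952) and SLC7A5 at -0.57 ± 0.21 (limma, adjusted p = 0.347). Voom on approximate fragments called SLC7A1 (limma, adjusted p = 0.0272), and over the alternatives its adjusted p ran up to 0.533. SLC43A1 passed without either DMSO library (limma, adjusted p = 0.0413 at the lowest). The 95% interval of SLC1A5 was -0.85 to 0.68, and that of SLC38A2 was -0.45 to 0.34.

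Set against each other, A-485 gave lower levels than I-CBP112 in all 9 members within each replicate number, by -0.39 to -2.73 on the log2 scale. SLC1A5 at -2.15 ± 0.33 (limma, adjusted p = 0.0337) and SLC43A1 at -1.41 ± 0.20 (limma, adjusted p = 0.0256) passed, against 0.859% of all genes (0.775% lower). With the replicate block SLC3A2 at -1.12 (limma, adjusted p = 0.0206) and SLC7A11 at -1.24 (limma, adjusted p = 0.0444) passed as well, where 2.14% of all genes were called lower. Over the alternatives the adjusted p of limma ran from 0.0206 to 0.414 for SLC3A2 and from 0.0293 to 0.357 for SLC7A11. With a library left out, neither the call of SLC1A5 nor that of SLC43A1 held in every fit. Their log2 fold changes then ran from -2.67 to -1.62 and from -1.47 to -1.36. The doses of the 2 compounds are not known here, so this comparison is between these treatments as given.

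The interaction (the change with both compounds less the added changes of I-CBP112 and of A-485, on the log2 scale) did not pass for any member, and 0% of all genes passed. An unadjusted p under 0.05 was found for 1060 of all genes and 0 of the 9 members without the block, and for 1847 and 1 with it. Voom called 38 genes and the block 10 (0.0842%), none of them a member. The most negative value was that of SLC7A11, -0.78 ± 0.37 with a 95% interval of -1.64 to 0.08 (limma, adjusted p = 0.573). The most positive was that of SLC3A2, 0.44 ± 0.32 with an interval of -0.30 to 1.17 (limma, adjusted p = 0.695).

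By transcript, 31 of the 38 member transcripts passed the filter on low values, and these were tested among 34002 transcripts. Isoform values divide reads among overlapping transcripts and vary more between replicates than gene sums. Limma called 4 member transcripts with both compounds, all lower, where 0.25% of all transcripts were called (0.226% lower). They were SLC3A2-203 (-3.81 ± 0.36; limma, adjusted p = 0.0306), SLC43A1-204 (-3.30 ± 0.32; limma, adjusted p = 0.0306), SLC1A5-203 (-2.92 ± 0.26; limma, adjusted p = 0.0277) and SLC7A1-201 (-1.95 ± 0.18; limma, adjusted p = 0.0277). With any 1 of the 8 libraries left out, limma called 0 of the member transcripts. It called 0 with A-485, where 0% of all transcripts passed, and 0 with I-CBP112, where 0.0206% did. An unadjusted p under 0.05 was found with A-485 for 17 of the 31 member transcripts and 3456 of all 34002, and with I-CBP112 for 5 and 2372. With the block the called member transcripts again numbered 4 with both compounds, 0 with A-485 and 0 with I-CBP112. The unadjusted p was then under 0.05 for 17 member transcripts with A-485 and 8 with I-CBP112, and for 4494 and 3223 of all transcripts.

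SLC3A2 had 12 transcripts in the table, and those that begin at its upstream start took their lowest share of the gene with both compounds. Starts were assigned from the GENCODE 29 annotation, with a transcript placed at a RefSeq start within 100 bases; 26 of the 38 transcripts have another version there than in the table, so their ends may differ. The grouping was made after the values were seen and is given without a test. The 4 transcripts at the upstream start, 24787 bases before the next, summed to 74.7 and 50.6 scaled FPKM under DMSO, 38.8 and 31.0 with I-CBP112, 30.01 and 22.9 with A-485 and 6.33 and 10.7 with both compounds. Their share of SLC3A2 was 18.0% in each DMSO library, 14.1% and 14.8% with I-CBP112, 25.2% and 22.2% with A-485, and 5.8% and 9.9% with both. The both-compound libraries held the lowest shares and the A-485 libraries the highest. SLC3A2-203, the called transcript, is one of these 4 and was at 23.3 and 18.2 with DMSO, 17.5 and 11.8 with I-CBP112, 10.1 and 5.29 with A-485 and 0.488 and 0.594 with both. The 3 transcripts at the next start downstream, SLC3A2-201 above all, were at 239.7 and 153.3 with DMSO, 198.7 and 109.0 with I-CBP112, 73.6 and 64.8 with A-485 and 84.1 and 69.2 with both. There the A-485 and both-compound levels overlapped. The 2 transcripts at the most downstream start, whose window holds the TGATGNAA match shown above, were at 30.3 and 34.1 with DMSO and at 5.41 and 15.1 with both compounds.

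In the isoform estimates of SLC43A1 the shares of 2 starts that lie 793 bases apart differed between groups, which is given without a test. SLC43A1-204, from the downstream start, was at 58.7 and 38.0 scaled FPKM under DMSO, 27.8 and 31.1 with I-CBP112, 10.4 and 6.32 with A-485 and 4.28 and 3.52 with both compounds. The transcripts at the upstream start, whose window holds the E-box, were at 16.0 and 12.1 with DMSO, 14.2 and 11.2 with I-CBP112, 5.07 and 6.59 with A-485 and 3.12 and 4.40 with both. The share of the upstream start was 21.2% and 24.1% with DMSO, 32.1% and 26.1% with I-CBP112, 32.7% and 40.8% with A-485, and 42.2% and 53.7% with both. In A-485 replicate 2, SLC43A1-203 and SLC43A1-207, which begin within 100 bases of neither start, held 14.6% and 5.5% of the gene. With both compounds the levels at the 2 starts overlapped. Both starts gave less RNA with A-485 and with both compounds in every library than with DMSO.

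**Figure D3:**
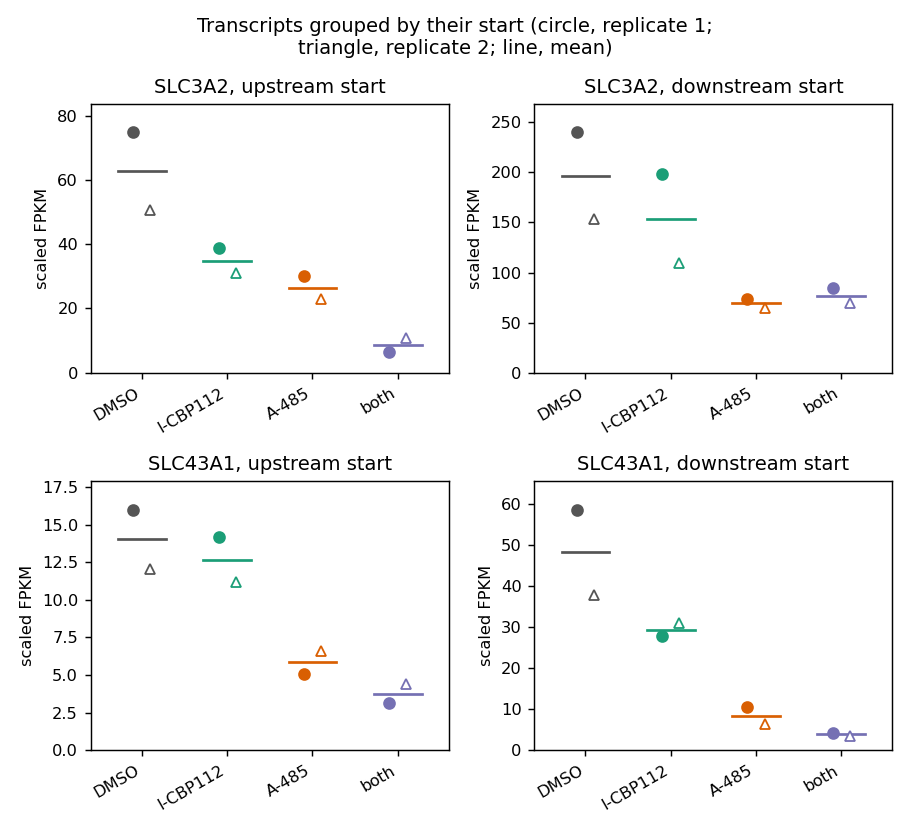
Summed level of the SLC3A2 and SLC43A1 transcripts at their upstream and downstream starts in each library (scaled FPKM, axis from 0; circle, replicate 1; triangle, replicate 2; line, mean). At the SLC3A2 upstream start the both-compound libraries (6.33 and 10.7) lie below the A-485 libraries (30.01 and 22.9), whereas at its downstream start the sums of the 2 groups overlap.

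SLC7A11 had 1 transcript in the table, SLC7A1-201 held at least 90.3% of SLC7A1 in every library, SLC38A2-201 at least 93.6% of SLC38A2 and SLC38A1-201 at least 84.3% of SLC38A1. SLC7A1-201 begins exactly at the start beside its TGATGNAA match and was at 41.2 and 39.2 scaled FPKM with DMSO and at 8.85 and 10.6 with both compounds. The SLC38A1 transcripts begin over 1000 bases upstream of the window that holds its match, and none lay within 100 bases of that start. SLC1A4-201, from the start with its TGATGNAA match, held 53.7% (A-485 replicate 2) to 100% of the gene. SLC7A5-203, which held 43.4% (both-compound replicate 2) to 93.1% (DMSO replicate 1) of SLC7A5, begins 5868 bases downstream of the only RefSeq start, so the E-box window of SLC7A5 lies at the start of SLC7A5-201. SLC1A5 was divided among 6 transcripts and 3 starts. The SLC1A5 transcripts at the start with the TGATGNAA match held 53.6% to 72.6% of the gene in 7 libraries and 31.5% in A-485 replicate 2, and the transcript at the start with the E-box was at 83.7 and 66.7 scaled FPKM with DMSO and 13.2 and 17.4 with both.

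Of 45 other amino acid transporters listed, 17 were measured above the filter. Limma called 2 lower and 0 higher with A-485 and 3 lower and 0 higher with both compounds, with medians of -0.06 and -0.02. Among all genes, 3.18% and 7.1% were called lower. SLC6A9 (GlyT1), the glycine carrier, changed by -2.06 ± 0.22 with A-485 (limma, adjusted p = 0.00513) and -2.60 ± 0.22 with both (limma, adjusted p = 0.000762). SLC7A2 (CAT-2), a paralog of SLC7A1, changed by -1.03 and -1.23 (limma, adjusted p = 0.0236 and 0.00589). SLC7A8 (LAT2), another light chain of SLC3A2, changed by -1.09 with both compounds (limma, adjusted p = 0.0417).

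Regulators and targets of ATF4 were lower in most of the list. All 40 were measured. Limma called 24 lower and 0 higher with A-485 and 28 lower and 0 higher with both compounds, with medians of -1.42 and -1.29. Among all genes, 3.18% and 7.1% were called lower. ATF4 mRNA itself was at 1066 and 867.5 scaled FPKM under DMSO, 680.9 and 801.2 with I-CBP112, 309 and 394 with A-485 and 298 and 386.5 with both. With A-485 the largest falls were those of CHAC1, a glutathione-degrading enzyme (-3.17), TRIB3, a pseudokinase that restrains ATF4 (-2.45), PSAT1 of serine synthesis (-2.45) and the asparagine synthetase ASNS (-2.27; limma, adjusted p from 0.00302 to 0.00673). With both compounds they were those of TRIB3 (-2.83), CHAC1 (-2.61), the mitochondrial folate enzyme MTHFD2 (-2.49) and the secreted glycoprotein STC2 (-2.34; limma, adjusted p from 0.000776 to 0.00381). Between both compounds and A-485 alone, limma called 0 of the 40, without and with the block (median -0.02). Of all genes, 0.817% were called in this comparison, or 1.38% with the block. The unadjusted p of limma was under 0.05 for 4 of the 40 and for 1443 of all 11874 genes. These shares are near those of all genes, so they are no result about this list.

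A further list held genes of cystine use and glutathione synthesis, which draw on the cystine that SLC7A11 imports, together with targets of NRF2, the transcription factor of the oxidative stress response. Of 27 listed, 26 were measured. Limma called 5 lower with A-485 and 5 lower with both compounds, or 8 and 10 with the replicate block, and 0 higher. Among all genes, 3.18% and 7.1% were called lower, or 9.1% and 12% with the block. The medians were -0.53 and -0.57. The NRF2 target HMOX1 (heme oxygenase) changed by -1.87 and -2.01, CTH, which makes cysteine from cystathionine, by -1.81 and -1.28, the NRF2 target NQO1, a quinone reductase, by -1.09 and -1.14, and the transketolase TKT by -1.07 and -1.25 with A-485 and both compounds (limma, adjusted p from 0.0011 to 0.0472).

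In the list of amino acid sensing and the mTORC1 pathway, single genes were called in both directions. Of 35 listed, 34 were measured, and limma called 1 lower and 2 higher with A-485 and 3 lower and 1 higher with both compounds, or 3 and 2, and 6 and 2, with the block. The list medians were -0.03 and 0.24. Of all genes, 3.18% were called lower and 1.26% higher with A-485. With both compounds 7.1% were called lower and 3.49% higher. The block called 9.1% and 12% of all genes lower. The counts of the list are small and mostly near these shares, so they are no result about the list as a whole. EIF4EBP1, the translation inhibitor that mTORC1 phosphorylates, fell by 2.01 with A-485 and by 2.19 with both compounds on the log2 scale (limma, adjusted p = 0.00513 and 0.00119). With A-485 the stress-induced sestrin SESN3 was higher at 1.17 (limma, adjusted p = 0.0152) and the lysosomal scaffold subunit LAMTOR3 at 0.84 (limma, adjusted p = 0.0495). With both compounds SESN1 (-1.18) and the GATOR2 subunit SEH1L (-0.87) were lower and the Rag GTPase RRAGB was higher (0.71; limma, adjusted p from 0.014 to 0.0406).

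In glutamine and branched-chain amino acid metabolism, 19 of 21 listed genes were measured. Limma called 6 lower with A-485 and 5 lower with both compounds, with medians of -0.41 and -0.20. With the replicate block it called 7 lower with A-485, and 5 lower and 1 higher with both compounds. Among all genes, 3.18% and 7.1% were called lower, or 9.1% and 12% with the block. The arginase ARG2 changed by -1.65 and -1.81, the glutamate dehydrogenase GLUD1 by -1.62 and -1.74, and the transaminase GPT2 by -1.58 and -1.77 with A-485 and both compounds, and GOT1 by -1.29 with A-485 (limma, adjusted p from 0.00112 to 0.0175). GLUD2, at -1.27 with both compounds (limma, adjusted p = 0.00671), is a near-identical copy of GLUD1, so its value is uncertain.

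**Figure D4:**
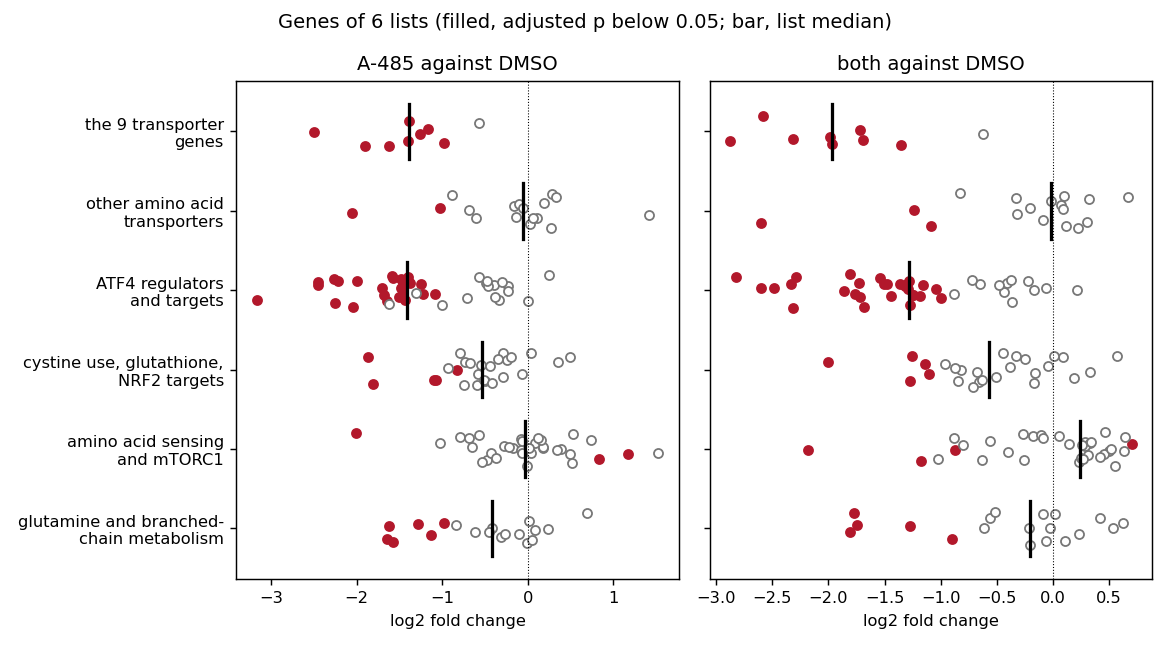
Log2 fold change of every measured gene in 6 gene groups with A-485 (left) and both compounds (right) against DMSO (filled, limma adjusted p below 0.05; bar, median of the group). The 9 transporters (medians -1.39 and -1.97) and the ATF4 group (-1.42 and -1.29) lie mostly below 0, and the other amino acid transporters (-0.06 and -0.02) center on 0.

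Across the 8 libraries, with the mean of each replicate number subtracted, the log2 levels of the 9 members correlated with one another at Pearson r of 0.84 to 0.99 (all pairs share the same 8 libraries and 4 treatments, so this describes these libraries only). The lowest value was between SLC7A5 and SLC38A2, and the highest between SLC43A1 and SLC1A4. The genes outside the 9 with the most similar pattern were YDJC, GLUD1 and MTHFD2 for SLC3A2 (r of 0.996 to 0.997), XBP1, JPT2 and DEGS1 for SLC7A5 (0.997 to 0.998), and ST3GAL1, PDE7A and GCSH for SLC7A11 (0.995 to 0.996). They were AEN, GDF15 and SLC19A2 for SLC7A1 (0.994 to 0.997), MARC1, CCT5 and CHTF18 for SLC43A1 (0.995 to 0.998), and MTHFD1, PMM2 and CCT5 for SLC1A4 (0.992 to 0.998). For SLC38A1 they were AKAP5, UCHL3 and CHRNA2 (0.991 to 0.994), and for SLC38A2 they were CADPS2, PMEPA1 and STC2 (0.982 to 0.99). Likeness of pattern does not measure size: the log2 fold change with both compounds was -2.32 for SLC7A11 and -0.26 for PDE7A.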

How the data were processed

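The authors' deposited table gives 1 value per Ensembl transcript and library. It was named as counts, but 78.3% of values are not whole, and low values of transcripts of at least 3000 bases are multiples of a step that falls with length (88.8% to 92.4% within 0.1 of a whole multiple), so the deposited values were treated as FPKM. Named in the submitters' processing notes are DESeq, DESeq2, STAR and Cufflinks, with hg19 and GRCh37 as builds (versions and roles: not given in the sources used here). RNA was extracted with Trizol and DNase, per the labels' protocols. FPKM totals were 696917 to 808443 in replicate 1 and 181486 to 408673 in replicate 2.

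Transcripts were summed to genes by GENCODE 29 (74209 matched, 91%). It follows GRCh38, not the submitters' build, and served for names, lengths and starts only. Libraries were scaled to a sum of 1e+06 and then to a trimmed mean log ratio of 0 (30% of ratios and 5% of levels trimmed). Genes with a scaled value of at least 1 in at least 2 libraries (11874) were tested on log2(scaled FPKM + 1) by limma 3.58.1 (R 4.3.3). The model fitted the 4 group means with a robust, trended spread on 4 residual degrees of freedom. Benjamini-Hochberg adjusted p covers all genes tested, at 0.05. Transcripts were scaled and fitted separately in the same way. Standard errors follow ±, and intervals are 95%. In simulated data on 11730 genes for A-485 against DMSO, this recovered 52% of genes lowered 2-fold and 98% of those lowered 4-fold. The simulated noise was independent between libraries, without a replicate or depth effect, and genes of low level were not among those lowered. These rates may therefore not hold for the real libraries or for a gene as low as SLC7A5.

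Same-numbered libraries share a column prefix across groups in the labels, whose meaning is not explained, and their deviations from the group means correlated at 0.145 to 0.425. The replicate number was therefore also tried as a block.

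The members, lists and markers were chosen with earlier results of these data known. Named genes are the 9 members, up to 4 called genes per list and comparison with the largest change, and the 3 genes most like each member (those of SLC1A5 are not reported here). Start windows are those of RefSeq (GRCh38.p14). The 17 alternatives, 8 of which leave out 1 library, are given under the closing section. With a library left out, the lone library of its group is assumed to vary like the others. SLC6A14, SLC38A3, SLC7A11-AS1 and CASTOR2 were not analysed here.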

Additional observations from a re-analysis of the deposited data

How the results depend on the processing

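With both compounds against DMSO, the same 8 members were called under all 17 alternatives, and SLC38A2 as well with the replicate block, voom and transcripts of at least 1000 bases (9). Against DMSO, I-CBP112 called 0 members throughout. In brackets are the calls over all genes, in either direction. The members called with A-485 against DMSO numbered 5 with scaling to the total alone (539) and 6 without the filter on low values (362), where SLC7A11 and SLC1A4 were lost. For both compounds against I-CBP112 they numbered 5 with the total alone (141) and 3 without the filter on low values (160). For both compounds against A-485 they numbered 1 with voom (304). For A-485 against I-CBP112 they numbered 4 with the replicate block (310), 0 with the total alone (39), 0 without the filter (41) and 6 with voom (301). In that comparison SLC7A11 was called as well with transcripts of at least 1000 bases (226). With A-485 against DMSO, SLC38A2 was called as well with the replicate block (1614) and with voom (1896). With a library left out, the calls shifted in each of these comparisons, among the members and over all genes. Of member transcripts with both compounds, 1 was called without the filter, 0 without a trended and robust spread and 0 with any library left out. The block changed no other call of a member. The cause of these shifts was not tested, except that no filter adds genes to the adjustment and a left-out library removes a sample. Scaling to the total alone moved the median of all genes to 0.31 with A-485 and 0.25 with both compounds.

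Signs turned only in values that did not pass. With the total alone these were SLC38A2 with I-CBP112 (0.09) and the SLC7A5 interaction (-0.04), with voom the SLC1A4 interaction (0.38), and with transcripts of at least 1000 bases the SLC38A2 interaction (0). With 1 library left out, ranges that crossed 0 were, with I-CBP112 against DMSO, -0.55 to 0.24 for SLC7A11 and -0.17 to 0.05 for SLC38A2, with both compounds against A-485, -0.15 to 0.01 for SLC3A2 and -0.61 to 0.44 for SLC1A5, and, in the interaction, -0.01 to 0.37 for SLC7A5, -0.11 to 0.11 for SLC38A2, -0.32 to 0.31 for SLC1A4, -0.29 to 0.08 for SLC38A1 and -0.26 to 0.79 for SLC1A5.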
